A study of Mus musculus with 21 samples.

Results

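Macrophages with low or no surface CD11c (CD11clo macrophages) were compared between kidneys with renal artery stenosis (RAS) and kidneys after a sham operation (Sham). The comparison took the 7 libraries whose labels name this population, 4 from RAS (RAS 1 to RAS 4) and 3 from Sham (Sham 1 to Sham 3), of 21 libraries in the series. The study's methods state fewer RAS libraries of this population than were deposited, without saying which, and all deposited libraries were used. All mice were male C57BL/6J with no transgene, and the labels give an age of 24 weeks for every library. A cuff narrowed the right renal artery in the RAS mice, whereas in Sham mice the artery was freed and no cuff was placed. Kidney cells were digested, stained and sorted within about 5 hours as F4/80+ CD64+ cells with high CD11b and low to absent CD11c, after a lineage gate had removed T, B and NK cells, erythrocytes and granulocytes. Nothing in the labels says that each library came from a separate mouse, so every p-value measures the spread between libraries, which may be technical in part. Expression is given in counts scaled to library size (CPM) for each library, and the difference as a log2 fold change of RAS over Sham with its standard error (SE).

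CD11b-high, CD11c-low macrophages of the kidney are largely replenished by blood monocytes, whereas kidney-resident macrophages (KRM) are long-lived cells that renew themselves in the tissue. A monocyte that enters tissue loses markers such as *Ly6c2* and *Chi3l3*, and can gain antigen presentation through MHC class II, inflammatory cytokines driven by the transcription factor NF-kB, or interferon-stimulated genes. A stenosed artery lowers perfusion of the kidney behind it, which draws monocytes, activates endothelium and fibroblasts, and injures tubules.

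Total counts ranged from 8573925 to 9928310 per library, and 14606 to 16533 genes had counts. At this depth a library without a count for a gene may still hold it at up to 3 counts, which takes in counting error alone. RAS and Sham libraries were mixed along the first principal component and separated along the second. The first principal component held 44.7% of the variance and placed RAS 1 at -72.4, beside Sham 1 at -45.9 and Sham 2 at -53, whereas Sham 3 was at 61.5, near RAS 3 at 59.6 and RAS 4 at 48.7. The second held 24.5%, with Sham 1, 2 and 3 at 12.3, 15.1 and 82.5 and RAS 1 to 4 at -8.36, -23.4, -43.2 and -35. On the first component RAS 1 was closer to Sham 1 and Sham 2 than to the other RAS libraries, and Sham 3 carried RNA of proximal tubule, described with the other cell types. Counts and gene lists are therefore given with all 7 libraries and mostly again without RAS 1 and Sham 3, as are some of the single genes. Leaving out RAS 1 removes the RAS library that most resembled Sham, so calls made without it do not stand on their own.

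With all 7 libraries in edgeR's quasi-likelihood test, none of the 12301 genes passed an adjusted p of 0.05 (0%), and the smallest adjusted p was 0.553. At an unadjusted p under 0.05, 687 genes (5.58%) were higher in RAS and 415 genes (3.37%) were lower, 1102 in all. A fold above 2 together with an unadjusted p under 0.05 was met by 415 genes that were higher (3.37%) and by 123 that were lower (1.00%). All RAS libraries lay above all Sham libraries for 542 genes (4.41%) and below them for 500 genes (4.06%), and 47.2% of genes had a positive log2 fold change, with a median of -0.025. DESeq2, run on the same genes, called 107 (0.870%), of which 102 were higher and 5 lower. Without RAS 1 and Sham 3, edgeR tested 12531 genes and called 36, of which 35 were higher (0.279%) and 1 was lower, with a median over all genes of 0.022 and 51.8% positive. The verbs used below for a single gene state its values, since by edgeR none was called with all libraries in.

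**Figure D1:**
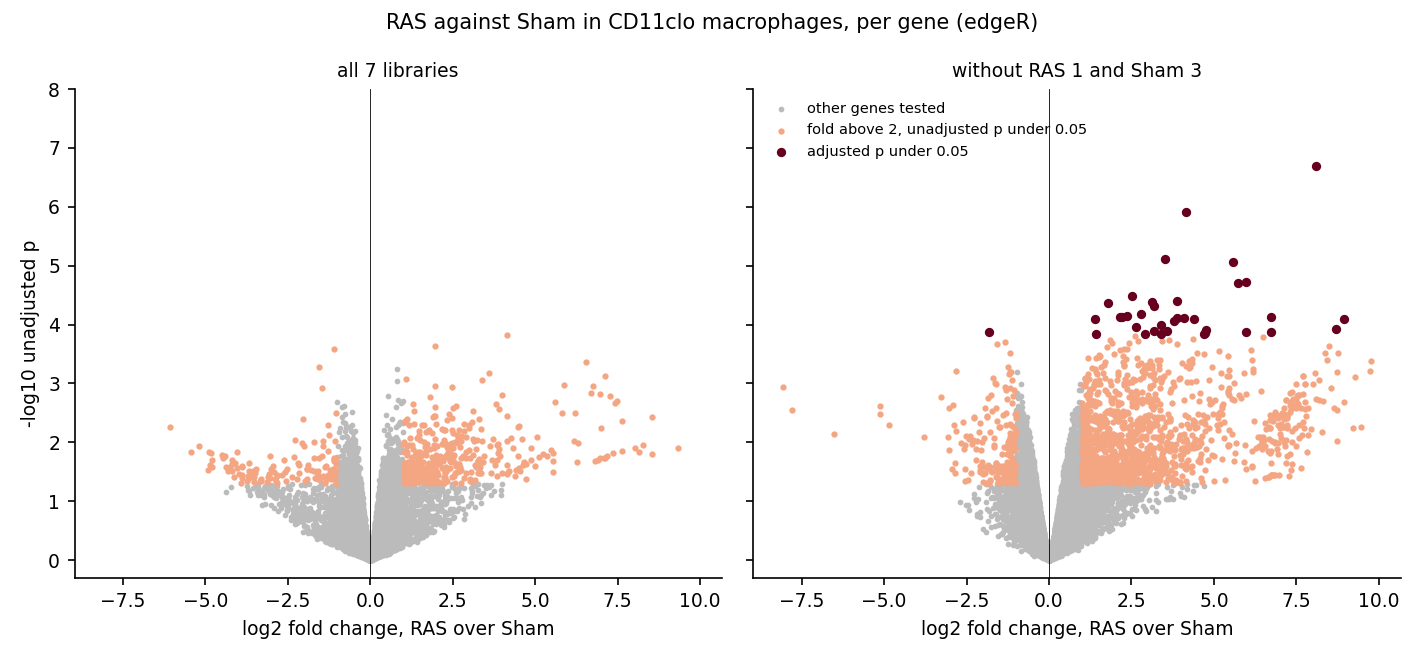
Log2 fold change of RAS over Sham (horizontal axis) against -log10 of edgeR's unadjusted p (vertical axis) for each gene tested, with all 7 libraries on the left and without RAS 1 and Sham 3 on the right. Orange points have a fold above 2 and an unadjusted p under 0.05 (538 genes on the left), and dark points have an adjusted p under 0.05, which are 0 genes on the left and 36 on the right, 35 of them on the side of higher expression.

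The genes of the sort gate were present in every library. *Fcgr1*, which encodes CD64, the receptor used to define macrophages, was at 123, 117, 239 and 117 CPM in RAS 1 to 4 and at 87.1, 92.8 and 64.7 CPM in Sham 1 to 3. All RAS values were above all Sham values, RAS 3 stood far above the others, and the log2 fold change was 0.87 (SE 0.30, unadjusted p = 0.0195, adjusted p = 0.553). *Itgax*, the gene of CD11c, measured 8.39, 36.5, 57.1 and 46.0 CPM in RAS and 11.6, 17.2 and 28.4 CPM in Sham. Its groups overlapped because RAS 1 was the lowest library, and the log2 fold change was 0.96 (SE 0.59, adjusted p = 0.631), against 1.70 (adjusted p = 0.0675) without RAS 1 and Sham 3. *Cx3cr1*, the fractalkine receptor of monocytes and macrophages, was at 478, 297, 885 and 456 CPM in RAS and 230, 300 and 290 CPM in Sham, where only RAS 2 lay within the Sham range. *Emr1* (F4/80), *Itgam* (CD11b), *Ptprc* (CD45), *Fcgr4*, *Mertk* and *Spn* overlapped between the groups, with log2 fold changes from -0.11 to 1.23. The summed CPM of 22 genes of macrophage identity was between 43300 and 55100, of which *Lyz2*, the lysozyme of myeloid cells, made up 52% to 80.4%. The other 21 genes summed to 11200, 13200, 26500 and 15100 CPM in RAS and 10500, 9520 and 11300 CPM in Sham, with RAS 1 inside the Sham range and RAS 3 highest. Of the 22, 20 were higher in RAS, with a median of 0.59, or 0.22 without RAS 3. Markers of the labelled cell type were thus present in every library.

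Genes of MHC class II presentation were higher in RAS as a group. All 15 listed genes were tested, all 15 had a positive log2 fold change, 11 had an unadjusted p under 0.05, and in 8 the groups did not overlap. Over all genes 5.58% were higher at that p and 4.41% had all RAS libraries above Sham. The median log2 fold change was 1.38, against -0.025 over all genes, and it was 1.75 without RAS 1 and Sham 3 and 0.91 without RAS 3. Summed over the list, RAS 1 to 4 held 18700, 20200, 101000 and 40900 CPM and Sham 1 to 3 held 11700, 13200 and 16600 CPM. Every RAS library was thus above every Sham library, by little in RAS 1 and RAS 2 and by much in RAS 3. The summed level of 16 markers of kidney-resident macrophages moved with it, at 1720, 2360, 10800 and 2890 CPM in RAS and 1380, 1260 and 2160 CPM in Sham, as did 19 dendritic cell genes, at 978 to 1920 CPM in RAS and 846 to 961 CPM in Sham. The part of these cells in the MHC class II values was not tested, and in bulk RNA more cells of a type and more RNA per cell cannot be told apart.

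*H2-Ab1*, the beta chain of the MHC class II molecule I-A, is a protein-coding gene on chromosome 17 (34257689 to 34269419, plus strand, GENCODE M21 on GRCm38). It was at 2970, 3200, 19100 and 7250 CPM in RAS and at 1670, 2050 and 2460 CPM in Sham. No RAS library fell into the Sham range, and the log2 fold change was 1.98 (SE 0.68, unadjusted p = 0.0201, adjusted p = 0.553). *Cd74*, the invariant chain that guides MHC class II to the endosome, showed the same order of libraries, with 8690, 9190, 48100 and 20100 CPM in RAS and 4830, 6090 and 8440 CPM in Sham (log2 fold change 1.74, SE 0.65, adjusted p = 0.553). RAS 1 exceeded Sham 3 by little in *Cd74*. Without RAS 3 the log2 fold changes were 1.13 for *H2-Ab1* and 0.99 for *Cd74*. *Ciita*, the transcription factor that switches on the MHC class II genes, measured 88.5, 94.0, 298 and 164 CPM in RAS and 48.3, 59.2 and 79.0 CPM in Sham, with a log2 fold change of 1.38 (SE 0.45, adjusted p = 0.553). *H2-DMb1*, a chain of the molecule that loads peptides onto MHC class II, was at 418, 431, 1320 and 707 CPM in RAS and at 246, 243 and 280 CPM in Sham. Its Sham libraries lay close together and below every RAS library, the log2 fold change was 1.49 (SE 0.42, unadjusted p = 0.00762), and DESeq2 called it (adjusted p = 0.0263). *Cd83*, which stabilises surface MHC class II on activated cells, reached 3450 CPM in RAS 3 and 1360 CPM in RAS 4, with 197 and 688 CPM in RAS 1 and RAS 2 and 135, 102 and 329 CPM in Sham. RAS 1 lay within its Sham range, and the log2 fold change was 2.92 (SE 0.94, adjusted p = 0.553), or 2.01 without RAS 3. The H2 genes are close relatives, so reads may have been divided between them in counting.

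**Figure D2:**
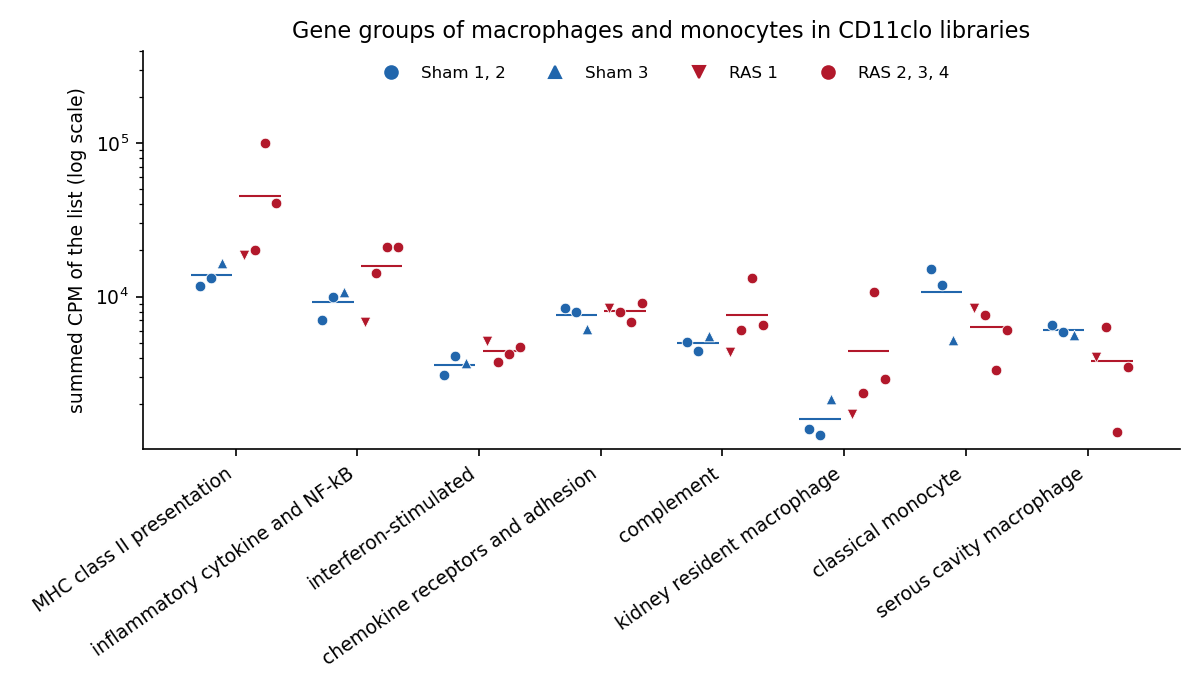
Summed CPM (log scale, vertical axis) of 8 gene groups of macrophages and monocytes in each CD11clo library, Sham in blue and RAS in red, with triangles for Sham 3 and RAS 1 and horizontal lines at the group means. MHC class II presentation was higher in all RAS libraries, with the highest sum, 101000 CPM, in RAS 3, whereas the other 7 groups overlapped between RAS and Sham.

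Inflammatory and NF-kB genes were mostly higher in RAS 2, RAS 3 and RAS 4 but not in RAS 1. Of 33 genes listed 30 were tested, 25 had a positive log2 fold change and 5 a negative one. An unadjusted p under 0.05 was reached by 13, all higher in RAS, against 5.58% of all genes. The groups of 6 did not overlap, against 4.41% of all genes. The median log2 fold change was 0.66, and 1.02 without RAS 1 and Sham 3. The summed level was 6890 CPM in RAS 1, below all Sham libraries (7100, 10000 and 10700 CPM), and 14200, 21000 and 21000 CPM in RAS 2 to 4, above them.

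*Il1b*, the cytokine interleukin 1 beta, was at 1500, 3880, 6490 and 6910 CPM in RAS 1 to 4 and 1330, 519 and 823 CPM in Sham 1 to 3. RAS 1 was just above Sham 1 and the other RAS libraries were far above it. The log2 fold change was 2.40 (SE 0.58, unadjusted p = 0.00327, adjusted p = 0.553), or 2.64 (adjusted p = 0.0792) without RAS 1 and Sham 3, and DESeq2 called it (adjusted p = 0.00156). *Il1rn*, the soluble antagonist of the interleukin 1 receptor, measured 65.8, 207, 476 and 791 CPM in RAS and 72.7, 44.5 and 42.6 CPM in Sham, so that only RAS 1 fell into the Sham range (log2 fold change 2.85, SE 0.78, adjusted p = 0.553). *Il1a*, interleukin 1 alpha, had the lowest of all its values, 15.9 CPM, in RAS 1, and 145, 226 and 456 CPM in the other RAS libraries, against 23.1, 21.2 and 45.0 CPM in Sham. The log2 fold change of *Il1a* was 2.82 (SE 0.94), and 3.64 (adjusted p = 0.0559) without RAS 1 and Sham 3. *Ptgs2*, the inducible cyclooxygenase, was at 244, 576, 699 and 1240 CPM in RAS and 330, 213 and 214 CPM in Sham, with RAS 1 again in the Sham range (log2 fold change 1.45, SE 0.50). *Cd40*, a costimulatory receptor, was the most even of these genes, at 65.1, 60.4, 94.8 and 82.9 CPM in RAS and 38.2, 39.6 and 53.4 CPM in Sham. Its groups did not overlap, and its log2 fold change was 0.79 (SE 0.21, unadjusted p = 0.00554). *Cd40* is also in the MHC class II list and was counted there too.

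*Nfkbie*, an inhibitor of NF-kB that NF-kB itself induces, was at 96.2, 153, 246 and 351 CPM in RAS and at 66.5, 69.7 and 77.1 CPM in Sham. All RAS libraries lay above a narrow Sham range, with a log2 fold change of 1.57 (SE 0.41, adjusted p = 0.553) and a DESeq2 call (adjusted p = 0.0195). *Nfkb2*, a subunit of NF-kB, was at 161.2, 196.4, 190.3 and 253.6 CPM in RAS and at 116.2, 131.2 and 144.9 CPM in Sham, without overlap (log2 fold change 0.62, SE 0.18, unadjusted p = 0.0101). The promoter window of *Nfkb2*, from 250 bases before to 50 after the start of the gene in RefSeq on GRCm38.p6 (chr19:46304487-46304786, plus strand), is printed because it holds the motif GGGANTTCC of NF-kB. Capitals mark 2 overlapping matches, the letters being searched on both strands, and they lie just before the start of the gene.
Nfkb2: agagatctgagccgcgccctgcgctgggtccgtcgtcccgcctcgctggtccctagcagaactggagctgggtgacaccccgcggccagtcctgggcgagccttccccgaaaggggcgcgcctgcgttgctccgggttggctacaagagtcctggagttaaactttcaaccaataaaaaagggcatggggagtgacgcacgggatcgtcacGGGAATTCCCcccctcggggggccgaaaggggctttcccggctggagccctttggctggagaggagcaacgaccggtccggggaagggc
This motif occurred in the windows of 4 of 22 inflammatory genes with a window in the table (18.2%) and in 520 of 27025 genes overall (1.92%). The AP-1 motif TGANTCA occurred in 31.8% of the inflammatory genes and in 8.97% of all genes. A match describes the letters only.

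Interferon-stimulated genes differed little in size but mostly in the same direction. All 34 listed genes were tested and 32 had a positive log2 fold change. An unadjusted p under 0.05 was reached by 8, all higher in RAS, against 5.58% of all genes, and 3 of 34 did not overlap, against 4.41% of all genes. Without RAS 3 the 8 became 3, and 26 of 34 were positive without RAS 1 and Sham 3. The median log2 fold change was 0.40 with all libraries, 0.34 without RAS 1 and Sham 3, and 0.40 without RAS 3. Summed levels overlapped, at 5130, 3770, 4250 and 4680 CPM in RAS and 3070, 4080 and 3670 CPM in Sham, with RAS 2 inside the Sham range. Unlike the inflammatory genes, RAS 1 held the highest sum. *Isg15*, a ubiquitin-like protein that interferon induces, was at 61.5, 57.4, 50.5 and 64.7 CPM in RAS and at 25.9, 39.6 and 33.3 CPM in Sham. The 4 RAS libraries were close together and all above Sham, with a log2 fold change of 0.83 (SE 0.18, unadjusted p = 0.00188, adjusted p = 0.553) that stayed at 0.82 without RAS 1 and Sham 3. DESeq2 called *Isg15* (adjusted p = 0.0238). *Gbp3*, an interferon-induced GTPase, was at 101, 82.4, 151.9 and 135.7 CPM in RAS and at 78.1, 79.6 and 77.0 CPM in Sham, where RAS 2 was just above the Sham range (log2 fold change 0.59, SE 0.22, unadjusted p = 0.0269). *Gbp4* and *Oas1g*, which are not in the list, were among the genes with the smallest p, and the third listed gene without overlap was *Mx2*. *Gbp4*, of the same family as *Gbp3*, was at 16.1, 15.1, 36.7 and 29.0 CPM in RAS and 5.75, 4.75 and 8.02 CPM in Sham, without overlap, with a log2 fold change of 1.97 (SE 0.40, unadjusted p = 0.00112). *Oas1g*, which makes the messenger that activates RNase L, was at 29.2, 20.4, 45.2 and 25.1 CPM in RAS and 10.7, 13.3 and 12.3 CPM in Sham (log2 fold change 1.30, SE 0.29). *Rsad2*, an antiviral enzyme, overlapped, at 68.0, 47.9, 89.8 and 125 CPM in RAS and 20.1, 27.2 and 59.3 CPM in Sham. *Gbp* and *Oas1* genes have near copies, and their counts may be divided among them.

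The core of the interferon-stimulated response element, GAAANNGAA on either strand, lay in the windows of 18 of 27 interferon-stimulated genes with a window (66.7%) and in 2638 of all 27025 genes (9.76%). Windows of the non-overlapping genes *Isg15* (chr4:156200769-156201068, minus strand, 3 matches) and *Gbp3* (chr3:142559794-142560093, plus strand, 2 matches) are shown, from RefSeq on GRCm38.p6, with the matches in capitals.
Isg15: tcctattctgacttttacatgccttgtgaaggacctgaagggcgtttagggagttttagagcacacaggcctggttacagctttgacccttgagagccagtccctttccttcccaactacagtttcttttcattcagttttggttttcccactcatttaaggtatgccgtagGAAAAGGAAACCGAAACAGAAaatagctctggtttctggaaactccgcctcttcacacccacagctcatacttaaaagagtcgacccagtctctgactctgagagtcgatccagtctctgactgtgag
Gbp3: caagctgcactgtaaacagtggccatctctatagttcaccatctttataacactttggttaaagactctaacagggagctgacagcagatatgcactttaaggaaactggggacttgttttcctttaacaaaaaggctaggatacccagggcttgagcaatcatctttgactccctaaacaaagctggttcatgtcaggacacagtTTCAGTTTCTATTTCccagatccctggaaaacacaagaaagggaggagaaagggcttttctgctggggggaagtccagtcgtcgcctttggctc
In both windows the matches overlap each other.

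Receptors for chemokines and adhesion molecules split within their list. Of 24 tested, 15 were higher and 9 lower, and the median log2 fold change was 0.31. An unadjusted p under 0.05 was reached by 8, all higher, against 5.58% of all genes, while 6 did not overlap, against 4.41%. The median was 0.15 without Sham 3 and 0.19 without RAS 1 and Sham 3. *Cxcr3*, the receptor of interferon-induced chemokines, was at 7.16, 4.15, 14.5 and 7.21 CPM in RAS and at 2.18, 1.02 and 0.791 CPM in Sham, so that all RAS libraries were above Sham (log2 fold change 2.61, SE 0.60, DESeq2 adjusted p = 0.0104). T cells also express *Cxcr3*, and their markers were higher in RAS, as given below. *Cxcr4*, the receptor for the chemokine CXCL12, was at 81.5, 64.3, 104 and 101 CPM in RAS and 55.9, 36 and 51.3 CPM in Sham (log2 fold change 0.88, SE 0.23, unadjusted p = 0.00486). *Icam1*, a ligand of leukocyte integrins, was at 209, 190, 404 and 470 CPM in RAS and 185, 138 and 168 CPM in Sham, where RAS 2 barely exceeded Sham 1 (log2 fold change 0.96, SE 0.35). *Vcam1*, another integrin ligand, was at 26.8, 37.6, 329 and 81.6 CPM in RAS and 20.1, 8.03 and 5.65 CPM in Sham (log2 fold change 3.39, SE 1.00, unadjusted p = 0.00942). Both were above Sham in every RAS library, and *Vcam1* was again highest in RAS 3, without which its log2 fold change was 2.12.

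Genes of classical monocytes had mostly negative log2 fold changes. Of 12 tested 11 had a negative log2 fold change, and 1 had an unadjusted p under 0.05, against 3.37% of all genes lower at that p. In none did all RAS libraries lie below all Sham libraries. The median was -0.60 with all libraries, -1.04 without RAS 1 and Sham 3, where 12 of 12 were lower, and -0.32 without RAS 3. Without RAS 1 and Sham 3, 10 of the 12 had all RAS libraries below all Sham libraries, as did 19.4% of the genes tested, and 6 had an unadjusted p under 0.05, against 6.06% of the genes tested that were lower at that p, while 0 were called. The summed level was 8430, 7630, 3340 and 6030 CPM in RAS and 15100, 12000 and 5220 CPM in Sham, so the groups overlapped through Sham 3. *Chi3l3*, a chitinase-like protein of monocytes whose family has near copies, accounted for much of this, at 867, 844, 146 and 459 CPM in RAS and 4170, 3170 and 467 CPM in Sham. Sham 3 was near RAS 4, and the log2 fold change was -2.17 (SE 0.78, unadjusted p = 0.0239, adjusted p = 0.553), or -2.92 (adjusted p = 0.0929) without RAS 1 and Sham 3. *Ly6c2*, the Ly6C surface protein of inflammatory monocytes, was at 782, 622, 203 and 484 CPM in RAS and 842, 965 and 576 CPM in Sham, overlapping, with a log2 fold change of -0.60 (SE 0.42, adjusted p = 0.666). *F13a1*, a transglutaminase subunit of monocytes, was at 1810, 1900, 757 and 1470 CPM in RAS and 3790, 2870 and 1580 CPM in Sham (log2 fold change -0.89, SE 0.39, adjusted p = 0.554). *Ccr2*, the receptor that brings monocytes out of the bone marrow, had a log2 fold change of 0.10 (SE 0.31), and of -0.28 without RAS 1 and Sham 3. Of 21 genes of serous cavity macrophages, 17 were lower, none at an unadjusted p under 0.05, with a median of -0.57 and a summed level from 1320 CPM in RAS 3 to 6330 CPM in RAS 2, against 5660 to 6560 CPM in Sham. This median was -0.25 without RAS 3, -0.38 without Sham 3 and -0.46 without RAS 1 and Sham 3.

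Markers of kidney-resident macrophages and complement genes were highest in RAS 3. The lists share members, as *C1qa* is in both and in macrophage identity, and *Itgax* is in the resident, dendritic cell and sort lists. All 16 resident markers were tested and positive. An unadjusted p under 0.05 was reached by 7, against 5.58% of all genes, and 4 did not overlap, against 4.41%. The median log2 fold change was 1.70. It was 2.33 without RAS 1 and Sham 3, but 0.68 without RAS 3, with 13 of 15 positive. *Cxcl16*, a membrane-bound chemokine, was at 98.4, 107, 979 and 245 CPM in RAS and at 51.1, 61.9 and 69.8 CPM in Sham. *Cadm1*, a cell adhesion molecule, was at 16.5, 9.91, 198 and 45.4 CPM in RAS and 8.73, 6.67 and 7.68 CPM in Sham, so RAS 2 was barely above Sham while RAS 3 was far above the other libraries. *Cadm1* had a log2 fold change of 3.13 (SE 1.04, unadjusted p = 0.0167) and *Cxcl16* of 2.55 (SE 0.84, unadjusted p = 0.0166), which were 1.65 and 1.32 without RAS 3. *Tgfb3*, a transforming growth factor, was at 0.614, 1.84, 32.3 and 4.02 CPM in RAS, while Sham held 1 count in all, a ratio of 269 with an exact 95% interval from 47.9 to 10600 for counting error. RAS 3 held 83.9% of the *Tgfb3* counts of RAS, and without it the ratio was 57.8 (9.96 to 2320). *Ccl8*, a monocyte chemoattractant, was at 43.8, 28.2, 237 and 20.6 CPM in RAS and 4.56, 2.49 and 7.01 CPM in Sham, and every RAS library lay above Sham. Its log2 fold change was 4.13 (SE 1.01, unadjusted p = 0.00358, adjusted p = 0.553), or 2.73 without RAS 3, and DESeq2 called it (adjusted p = 2.39e-04).

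Complement genes had a median log2 fold change of 0.87 over 22 tested, with 17 positive. Of the 22, 2 were higher at an unadjusted p under 0.05, against 5.58% of all genes. The median was 1.53 without RAS 1 and Sham 3 and 0.24 without RAS 3. *C1qc*, a subunit of the first complement component, was at 503, 651, 2560 and 666 CPM in RAS and 390, 346 and 591 CPM in Sham, with RAS 1 inside the Sham range (log2 fold change 1.31, SE 0.60, adjusted p = 0.556). *C3ar1*, the receptor of complement fragment C3a, did not overlap, at 126, 139, 769 and 212 CPM in RAS and 105, 90.8 and 105 CPM in Sham (log2 fold change 1.63, SE 0.65). Without RAS 3 the log2 fold changes were 0.47 for *C1qc* and 0.68 for *C3ar1*. The share of resident macrophages among the cells of RAS 3 was not tested.

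Genes of alternative activation, of scar-associated macrophages and of lipid handling gave mixed lists. Of 26 alternative activation genes 13 were higher and 13 lower, with a median of 0.05 that became 0.98 without RAS 1 and Sham 3, and -0.11 without RAS 3. *Mrc1*, the mannose receptor, was at 187, 147, 1210 and 376 CPM in RAS and 84.2, 81.5 and 189 CPM in Sham, where Sham 3 lay just above RAS 1 and RAS 2 (log2 fold change 2.02, SE 0.78, adjusted p = 0.553, and 1.02 without RAS 3). Of 26 profibrotic and lipid-associated genes 19 were higher, with a median of 0.79 and 0.49 without RAS 3. An unadjusted p under 0.05 was reached by 9, all higher, against 5.58% of all genes. *Mmp9*, a gelatinase, did not overlap, at 355, 458, 623 and 1240 CPM in RAS and 285, 347 and 233 CPM in Sham (log2 fold change 1.22, SE 0.43, unadjusted p = 0.0221). *Igf1*, insulin-like growth factor 1, was at 17.2, 22.2, 92.1 and 34.8 CPM in RAS and 9.72, 16.9 and 16.8 CPM in Sham, where RAS 1 only just exceeded Sham. *Axl*, a receptor that takes up dying cells, overlapped, at 231, 179, 1160 and 371 CPM in RAS and 113, 112 and 211 CPM in Sham.

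Among 30 genes of lipid and sterol metabolism 21 were higher and 3 had an unadjusted p under 0.05, all higher, against 5.58% of all genes. *Mylip*, an LXR target that degrades the LDL receptor, was at 26.3, 33.1, 51.2 and 33.5 CPM in RAS and 14.7, 15 and 21.8 CPM in Sham, without overlap (log2 fold change 1.07, SE 0.27, unadjusted p = 0.00459). *Abca1*, the LXR-induced cholesterol exporter, overlapped, at 46.0, 62.0, 239 and 117 CPM in RAS and 26.6, 28.5 and 61.7 CPM in Sham. Antioxidant genes differed in both directions within the list of 23 for Nrf2, heme and iron, of which 12 were higher and 11 lower. *Nfe2l2*, which encodes Nrf2, was at 298, 466, 749 and 800 CPM in RAS and 263, 229 and 321 CPM in Sham (log2 fold change 1.09, SE 0.35), with RAS 1 in the Sham range. *Prdx1*, a peroxide-reducing enzyme, was lower in all RAS libraries, at 455, 462, 510 and 401 CPM against 750, 599 and 612 CPM in Sham (log2 fold change -0.52, SE 0.16, unadjusted p = 0.0128). Of 31 genes of hypoxia and glycolysis 21 were lower, with a median of -0.17. Of 26 immediate early genes, which tissue digestion can induce, 13 were higher and 13 lower, with a median of -0.03. The unfolded protein list (20 tested, 15 higher, median 0.26) and the cell cycle list (31 tested, 22 higher, median 0.35) had 1 and 3 genes with an unadjusted p under 0.05, all higher, against 5.58% of all genes.

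**Figure D3:**
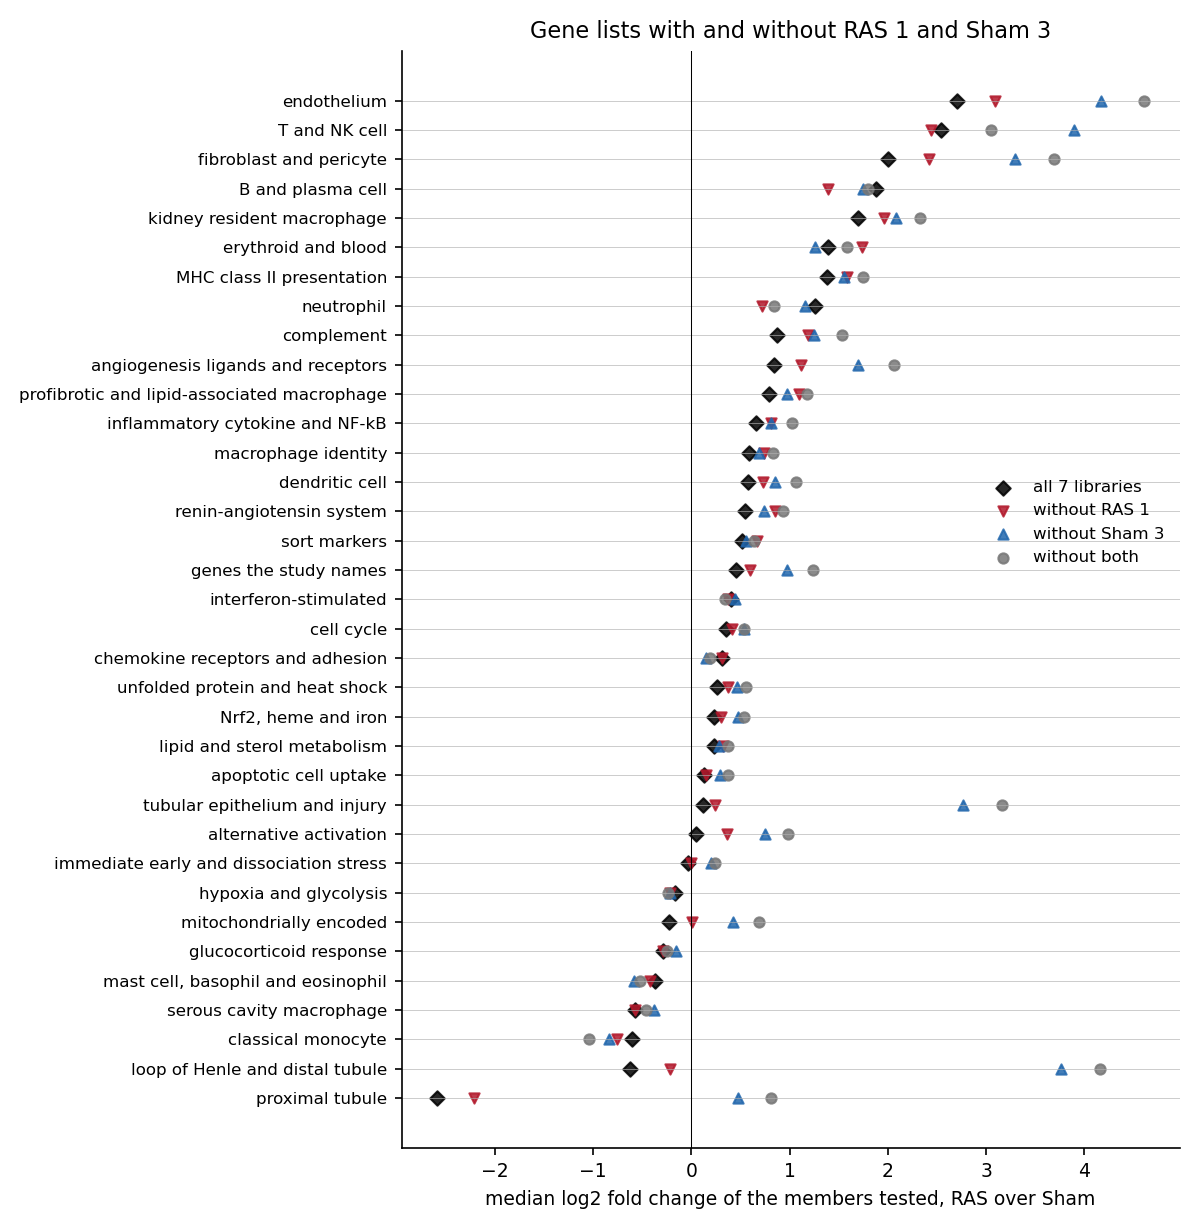
Median log2 fold change of RAS over Sham (horizontal axis) for 35 gene lists, computed with all 7 libraries (black diamonds), without RAS 1 (red triangles), without Sham 3 (blue triangles) and without both (grey circles). The median of MHC class II presentation lay between 1.38 and 1.75, whereas that of proximal tubule moved from -2.59 to 0.81 and that of loop of Henle and distal tubule from -0.63 to 4.16.

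Among genes with a fold above 2 and a mean log2 CPM of at least 2, the smallest unadjusted p-values of those higher in RAS belonged to *Pydc3* and the genes after it. Below that level *Il2rb*, the beta chain of the interleukin 2 receptor of T and NK cells, had the smallest p of all genes, at 6.45, 5.65, 4.09 and 5.56 CPM in RAS and 0.0992, 0.453 and 0.339 CPM in Sham (log2 fold change 4.15, SE 0.62, unadjusted p = 1.51e-04, adjusted p = 0.553), and was named after its values were seen. *Pydc3*, a pyrin domain protein of an interferon-inducible family with near copies, was at 21.1, 12.4, 20 and 18.1 CPM in RAS and at 4.36, 5.88 and 3.39 CPM in Sham. The groups were well apart, with RAS 1 the highest library, and the log2 fold change was 1.98 (SE 0.31, unadjusted p = 2.30e-04, adjusted p = 0.553). *Steap4*, a metalloreductase induced by inflammation, was at 7.27, 18.9, 24.3 and 37.0 CPM in RAS and 3.07, 1.36 and 0.904 CPM in Sham. Every RAS library was above Sham, and the log2 fold change was 3.60 (SE 0.67, unadjusted p = 6.72e-04), or 3.57 (adjusted p = 0.0498) without RAS 1 and Sham 3. *Flrt3*, a membrane protein of cell adhesion, was at 0.921, 11.4, 19.9 and 20.9 CPM in RAS and at 0.397, 0.113 and 0.113 CPM in Sham, that is near the limit of detection in Sham and in RAS 1. *Ets1*, a transcription factor of lymphocytes and endothelium, was at 21.9, 14.9, 46.1 and 32.3 CPM in RAS and 7.04, 8.48 and 9.04 CPM in Sham (log2 fold change 1.81, SE 0.39). *Ltb*, lymphotoxin beta, was at 34.9, 31.1, 29.5 and 45.4 CPM in RAS and 18.2, 17.2 and 14 CPM in Sham (log2 fold change 1.09, SE 0.21), and *Gimap4*, a GTPase of lymphocytes, was at 12.6, 3.34, 6.19 and 11.9 CPM in RAS and 0.397, 1.13 and 0.904 CPM in Sham. Neither overlapped. *Asprv1*, a protease, and *Maged2*, a MAGE family protein, had log2 fold changes of 3.81 (SE 0.86) and 2.48 (SE 0.50), also without overlap.

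Of the genes lower in RAS, *Galns*, a lysosomal sulfatase, was at 32.4, 29.9, 20.8 and 27.7 CPM in RAS and at 59.4, 55.3 and 63.3 CPM in Sham. Neither RAS 1 nor Sham 3 departed from its group here, and the log2 fold change was -1.10 (SE 0.18, unadjusted p = 2.59e-04, adjusted p = 0.553), or -1.13 without these libraries, with a DESeq2 adjusted p of 9.21e-04. *Hist1h2bg*, a histone gene with near copies, was at 6.86, 6.34, 5.86 and 6.27 CPM in RAS and at 22.0, 21.8 and 12 CPM in Sham. The RAS libraries were almost alike, and the log2 fold change was -1.55 (SE 0.28), and -1.83 (adjusted p = 0.0498) without RAS 1 and Sham 3. *Cisd1*, an iron-sulfur protein of mitochondria, was at 20.3, 21, 21.1 and 21.9 CPM in RAS and at 46.7, 36.1 and 91.2 CPM in Sham (log2 fold change -1.46, SE 0.30). *Fkbp5*, a glucocorticoid-induced chaperone partner, was at 17.5, 17.2, 18.3 and 21.9 CPM in RAS and 91.3, 37.8 and 22.5 CPM in Sham, where Sham 3 was just above RAS 4 (log2 fold change -1.43, SE 0.42, unadjusted p = 0.00944). *Paqr7*, *Tesk2*, *Dyrk3* and *Hist1h1e* had log2 fold changes of -1.03 (SE 0.25), -1.27 (SE 0.33), -1.71 (SE 0.51) and -1.07 (SE 0.31) and did not overlap. *Cyp4a12a*, a fatty acid hydroxylase of proximal tubule, reached 67.2 CPM in Sham 3 and at most 1.58 CPM in every other library.

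**Figure D4:**
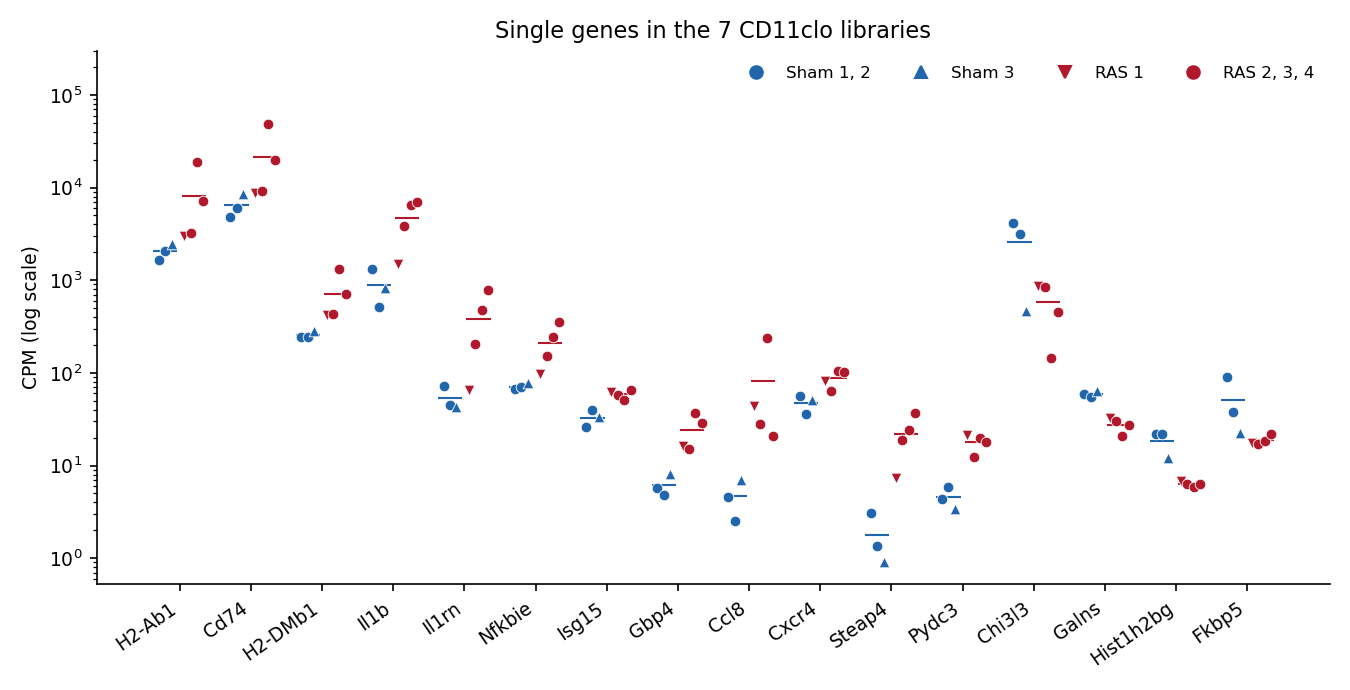
CPM (log scale, vertical axis) of 16 genes in each CD11clo library, Sham in blue and RAS in red, with triangles for Sham 3 and RAS 1 and horizontal lines at the group means. RAS libraries lie above Sham in most of the genes from H2-Ab1 to Pydc3 and below it in Galns, Hist1h2bg and Fkbp5, while RAS 1 overlaps Sham in Il1rn and Sham 3 overlaps RAS in Chi3l3.

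Markers of cells that the sort was meant to remove were not evenly spread. T and NK cell markers were low everywhere, at 84.5, 33, 97.7 and 66.3 CPM in sum in RAS and 10.6, 14.7 and 19.2 CPM in Sham, and were above Sham in every RAS library. Of 20 listed 12 were tested and all 12 were higher, with a median of 2.54. An unadjusted p under 0.05 was reached by 7, against 5.58% of all genes, and 7 did not overlap, against 4.41%. Markers near 0 in Sham could pass the count filter only through the RAS libraries, so the direction of such genes was set in advance. *Cd3g*, a chain of the T cell receptor complex, was at 9.72, 1.96, 3.43 and 3.43 CPM in RAS and had 1 count over all Sham libraries, a ratio of 133 with an exact 95% interval from 23.5 to 5280 for counting error. RAS 1 held 55.2% of its RAS counts, and without it the ratio was 81.7 (14.2 to 3270). *Cd28*, a costimulatory receptor of T cells, was at 3.38, 2.77, 5.41 and 2.48 CPM in RAS and 0.397, 0.453 and 1.02 CPM in Sham. *Cd8a* and *Cd8b1* were at 0 in all Sham libraries. B and plasma cell markers summed to 464 to 617 CPM in RAS and 236 to 317 CPM in Sham. Of 16 with counts 9 were tested, all higher with a median of 1.88, and the same limit of the filter applies to them. *Ighm*, the heavy chain of IgM, made up most of that sum, at 400, 388, 456 and 398 CPM in RAS and 155, 268 and 226 CPM in Sham (log2 fold change 0.92, SE 0.21, unadjusted p = 0.00212), without overlap.

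Neutrophil markers overlapped in sum, at 2910 to 5380 CPM in RAS and 1820 to 3630 CPM in Sham. Of 14 tested 8 were higher, and 7 had an unadjusted p under 0.05, all higher, against 5.58% of all genes. The other 6 were lower, none of them at that p, among them *Retnlg*, *Mmp8* and *Cd177* with log2 fold changes of -0.66, -1.47 and -0.54, named after their values were seen. The median of the 14 was 1.26, 0.72 without RAS 1 and 0.84 without RAS 1 and Sham 3. In that last setting 2 were lower at an unadjusted p under 0.05, against 6.06% of all genes. All RAS libraries lay below Sham in 4, against 19.4% of all genes. *S100a9*, a calcium-binding protein of neutrophils and monocytes, was at 162, 560, 678 and 1020 CPM in RAS and 231, 39.5 and 68.2 CPM in Sham, so RAS 1 lay in the Sham range (log2 fold change 2.42, SE 0.77, DESeq2 adjusted p = 0.0248). *Cxcr2*, a chemokine receptor of neutrophils, was at 18.1, 91.0, 107 and 192 CPM in RAS and 21.3, 6.90 and 7.80 CPM in Sham (log2 fold change 3.08, SE 0.79). *Csf3r*, the receptor of G-CSF, did not overlap, at 320, 612, 557 and 1160 CPM in RAS and 313, 279 and 214 CPM in Sham. The defining neutrophil marker *Ly6g* was at most 0.442 CPM in any library, and *Mpo* was at 0 in all RAS libraries. The part of lymphocytes and neutrophils in the differences of *Cxcr3*, *Ltb*, *Gimap4*, *Ets1*, *Il1b* and *Il1rn* was not tested.

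Fibroblast and endothelial markers had their lowest sums in RAS 1, Sham 1 and Sham 2. All 18 fibroblast and pericyte genes tested were higher, with a median of 2.00, or 3.69 without RAS 1 and Sham 3. Of 18 endothelial genes listed, the 13 tested were all higher, with a median of 2.70, or 4.61 over 17 genes without these 2 libraries. Only 9 passed the count filter without RAS 3. In both lists genes near 0 in Sham could pass only through RAS, so direction and medians depend in part on the filter. *Col1a1*, a chain of type I collagen, was at 0, 52.9, 20.9 and 17.9 CPM in RAS and 1.29, 1.70 and 4.52 CPM in Sham (log2 fold change 3.19, SE 1.42, adjusted p = 0.554). RAS 1 had no *Col1a1* count and the other RAS libraries were all above Sham. *Plvap*, a diaphragm protein of peritubular capillaries, was at 0.614, 0.576, 23.3 and 77.2 CPM in RAS and 0, 2.83 and 2.03 CPM in Sham, so the difference rested on RAS 3 and RAS 4. Endothelial sums were 75.9, 90.1, 185 and 425 CPM in RAS and 40, 66.2 and 80.2 CPM in Sham.

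Proximal tubule RNA was concentrated in Sham 3. The 20 markers summed to 11600 CPM there, to 991 and 904 CPM in Sham 1 and Sham 2, and to 661, 733, 1200 and 1220 CPM in RAS. With all libraries 19 of 20 were lower in RAS, with a median of -2.59, and without RAS 1 and Sham 3 18 of 20 were higher, with a median of 0.81. *Slc27a2*, a fatty acid transporter, was at 1490 CPM in Sham 3 and between 8.43 and 27.1 CPM in every other library, and its log2 fold change changed from -4.82 to 0.49. *Cyp4b1* changed in the same way, from -4.87 to 0.35, with 1650 CPM in Sham 3. Of 13 mitochondrially encoded genes 11 were lower in RAS, with a median of -0.23, and 13 of 13 were higher, with a median of 0.69, without RAS 1 and Sham 3.

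**Figure D5:**
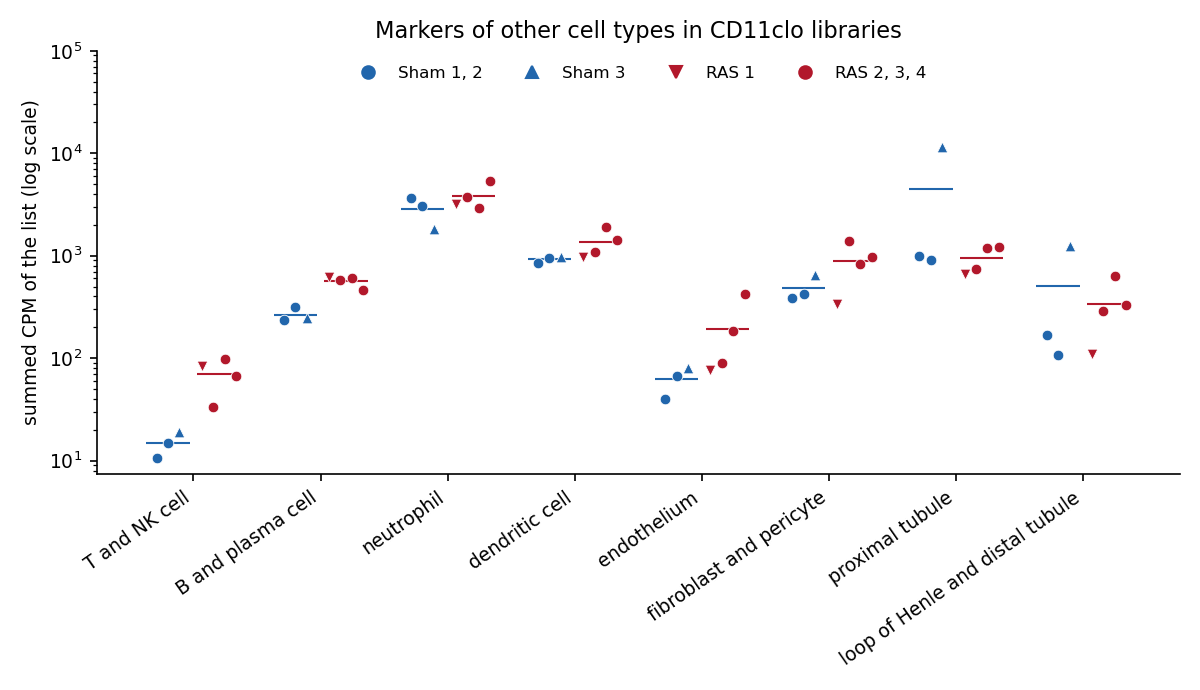
Summed CPM (log scale, vertical axis) of the markers of 8 other cell types in each CD11clo library, Sham in blue and RAS in red, with triangles for Sham 3 and RAS 1 and horizontal lines at the group means. The sums of dendritic cells, of B and plasma cells and of T and NK cells were above Sham in every RAS library, while the proximal tubule sum of Sham 3 (11600 CPM) was far above all others.

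The 36 genes called without RAS 1 and Sham 3 included 3 of the 18 fibroblast and pericyte genes tested, against 0.279% of all genes called higher. They also held 2 of 24 angiogenesis genes and 2 of 35 genes the study names. The immediate early, glucocorticoid response, tubular injury and podocyte lists held 1 each, and lists can share genes. They included 0 of the MHC class II, inflammatory or interferon-stimulated genes. In all 35 genes called higher RAS 1 lay below the other RAS libraries, and in 21 of them it lay below Sham 1 or Sham 2. Of the 36 genes 14 had an unadjusted p under 0.05 with all libraries. *Adamts1*, a matrix protease, was at 1.33, 47.1, 38.2 and 56.6 CPM in RAS and 0.0992, 0.226 and 19.2 CPM in Sham. RAS 1 was thus close to Sham 1 and Sham 2, and Sham 3 was nearer to the other RAS libraries. Without RAS 1 and Sham 3 its Sham libraries held 3 counts together, a ratio of 297 with an exact 95% interval from 101 to 1440 for counting error (edgeR adjusted p = 0.00254), and with all libraries its log2 fold change was 2.46 (SE 1.59, adjusted p = 0.645). *Igfbp7*, a growth factor binding protein of vessels, was at 2.66, 103, 104 and 85.8 CPM in RAS and 6.74, 4.19 and 190 CPM in Sham. Its log2 fold change was 0.14 (SE 1.39) with all libraries and 4.15 (SE 0.28, adjusted p = 0.00761) without RAS 1 and Sham 3, the highest library being Sham 3.

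*Col4a1*, a basement membrane collagen, was at 6.24, 80.9, 45.6 and 67.8 CPM in RAS and 5.45, 6.00 and 38.5 CPM in Sham, and its log2 fold change was 1.59 (adjusted p = 0.621), or 3.50 (adjusted p = 0.0273) without RAS 1 and Sham 3. *Clu*, the chaperone clusterin, moved from a log2 fold change of 2.18 to 5.58 (adjusted p = 0.0273), *Sparc*, a matrix glycoprotein, from 2.72 to 3.87 (adjusted p = 0.0484), and *Col18a1*, a collagen of vessel walls, from 2.76 to 4.76 (adjusted p = 0.0498). RAS 1 was the lowest RAS library in each. *Il1r2*, the decoy receptor of interleukin 1, was at 11.1, 525, 791 and 1750 CPM in RAS and 49.7, 27.2 and 75.3 CPM in Sham, so RAS 1 was the lowest of all and the other RAS libraries were far above Sham (log2 fold changes of 3.93 with all libraries and 4.74 without RAS 1 and Sham 3, adjusted p = 0.0498). *Cdh11*, a cadherin of fibroblasts, was at 0.205, 5.99, 6.19 and 8.04 CPM in RAS and at 0 in all Sham libraries, which with a limit of 3 counts over the Sham group is at least 45.8-fold higher. *Nr4a3*, a nuclear receptor of the immediate early response, was at 4.09, 42.9, 33.9 and 46.0 CPM in RAS and 9.82, 6.11 and 11.3 CPM in Sham (log2 fold changes of 1.80 and 2.36). Fibroblast and pericyte markers moved with these genes, with sums of 338 CPM in RAS 1 and 1380, 838 and 975 CPM in the other RAS libraries against 386, 418 and 641 CPM in Sham, and their part was not tested.

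DESeq2 called 107 genes with all 7 libraries, and 82 of them did not overlap between the groups. In 18 of them every Sham library held under 3 counts, and 9 were also among the 36 genes that edgeR called without RAS 1 and Sham 3. The 107 included *Pydc3*, *Steap4*, *Flrt3*, *Ccl8*, *Il1b*, *Il1rn*, *Nfkbie*, *H2-DMb1*, *Isg15*, *Gbp4*, *Cxcr2*, *Cxcr3* and *Ighm*. *Hpgds*, a prostaglandin D2 synthase, was called as well, at 16.1, 9.22, 163 and 33.6 CPM in RAS and 6.84, 5.66 and 5.31 CPM in Sham (DESeq2 adjusted p = 0.0162), all RAS libraries being above Sham and RAS 3 far above the rest. *Mgp*, matrix Gla protein of vessel walls, was at 0.307, 15.3, 40.1 and 11.5 CPM in RAS and 1.09, 0.566 and 0 CPM in Sham (DESeq2 adjusted p = 0.0153), with RAS 1 in the Sham range. The 5 genes called lower were *Cox6c*, *Sephs2*, *Galns*, *Cisd1* and *Hist1h2bg*.

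Of 38 genes that the study discusses for renal macrophages, several of them for KRM, 35 were tested, 25 were higher and 10 lower. An unadjusted p under 0.05 was reached by 10 of the 35, all higher, against 5.58% of all genes. The study chose them with these libraries in view, so they are not independent evidence. Their median was 0.45 with all libraries, 1.24 without RAS 1 and Sham 3, and 0.18 without RAS 3. *Spp1*, the secreted matrix protein osteopontin, was at 22.9, 286, 390 and 453 CPM in RAS and 58.1, 15.6 and 109 CPM in Sham, with RAS 1 in the Sham range (log2 fold change 2.24, SE 0.97, unadjusted p = 0.0495, adjusted p = 0.554, and 3.35 with an adjusted p of 0.0675 without RAS 1 and Sham 3). *Tnc*, the matrix protein tenascin C, was at 0, 23.3, 6.96 and 5.32 CPM in RAS and at 0 in all Sham libraries, at least 79.8-fold higher with the limit of 3 counts over the Sham group. RAS 1 was at 0 like Sham, RAS 2 held 65.2% of the counts, and without RAS 2 the bound was 36.7-fold. *Vegfa*, the main growth factor of endothelium, was at 58.0, 228, 118 and 307 CPM in RAS and 101, 83.5 and 111 CPM in Sham, again with RAS 1 below Sham (log2 fold change 0.85, SE 0.50, adjusted p = 0.621). *Il6* had a log2 fold change of 0.97 (SE 0.46), *Ccl7* of 1.70 (SE 0.89), *Ccl2* of 0.17 (SE 0.43), *Tnf* of -0.21 (SE 0.77), *Il10* of 0.24 (SE 0.99), *Irf5* of -0.14 (SE 0.18) and *Mx1* of 0.04 (SE 0.18), and all of these overlapped between the groups. Without RAS 1 and Sham 3 the log2 fold change was 2.66 for *Il10* (SE 0.54, unadjusted p = 0.0015, adjusted p = 0.0823), 2.55 for *Ccl7*, 0.44 for *Ccl2* and 0.25 for *Tnf*, and without RAS 3 *Il10* was at -0.43 and *Ccl7* at 0.55.

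The response of CD11clo macrophages was set against that of the CD11chi macrophages (4 RAS and 3 Sham libraries) in an interaction test. No gene of 13540 passed an adjusted p of 0.05 (0%) with edgeR, while 900 had an unadjusted p under 0.05 and DESeq2 called 15. The inflammatory list had a median difference of -0.20 (CD11clo minus CD11chi), with 11 of 32 above 0 and 0 at an unadjusted p under 0.05, and MHC class II a median of 0.64 with 9 of 15 above 0 and likewise 0. Markers of kidney-resident macrophages had a median difference of 2.55, with 10 of 16 at an unadjusted p under 0.05, all above 0. Complement had a median of 1.16, with 8 of 22 at that p, 7 above 0 and 1 below, and none of these genes was called. For *Il1b* the difference was 0.06 (adjusted p = 0.995), so no difference between its responses was detected, which does not show that they were alike. *Cadm1* and *Hpgds* had differences of 4.34 and 4.30 (both adjusted p = 0.735).

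Against KRM (3 RAS and 4 Sham libraries), 34 of 13877 genes (0.245%) had a response that differed by edgeR's interaction test, 3 with a higher and 31 with a lower value in CD11clo macrophages. In 32 of the 34 the KRM response was the larger one in size, and in 32 the KRM RAS mean was above the KRM Sham mean. In 26 the CD11clo RAS mean was below the CD11clo Sham mean, and in 31 the KRM Sham mean was below the CD11clo Sham mean. *Cd24a*, a surface glycoprotein, was at 548, 477, 139 and 289 CPM in CD11clo RAS and 520, 724 and 365 CPM in CD11clo Sham, against 14.9, 443 and 321 CPM in KRM RAS and 3.09 to 5.96 CPM in KRM Sham. CD11clo macrophages thus held *Cd24a* at 139 CPM or more in every library, with RAS 3 and RAS 4 below all CD11clo Sham libraries. By contrast 2 of 3 KRM RAS libraries lay far above KRM Sham (difference of responses -6.56, SE 1.10, adjusted p = 0.0394). Tubular markers differed in the same direction, with a median difference of -6.00 for tubular epithelium and injury (13 of 16 at an unadjusted p under 0.05 and below 0, against 14.1% of all genes), -6.13 for loop of Henle and distal tubule (10 of 13) and -6.38 for collecting duct (5 of 14), and their part in the difference of *Cd24a* was not tested. In the other direction *Tmbim1*, a membrane protein of lysosomes, was at 89.6, 105, 155 and 117 CPM in CD11clo RAS, 88.8, 86.7 and 77.0 CPM in CD11clo Sham, 221, 147 and 171 CPM in KRM RAS and 331 to 420 CPM in KRM Sham (difference 1.49, SE 0.27, adjusted p = 0.0488). All KRM RAS libraries were below KRM Sham, and all CD11clo RAS libraries were above CD11clo Sham. The MHC class II list had a median difference of 1.86, with 15 of 15 genes above 0, 10 at an unadjusted p under 0.05 (9.56% of all genes, above 0) and 0 called. Markers of kidney-resident macrophages moved with it, with a median of 2.70 and 14 of 16 at an unadjusted p under 0.05 and above 0, as did macrophage identity, with a median of 1.10 and 14 of 22. The resident and identity lists share *C1qa*, *C1qb* and *C1qc*. The number of calls depended on single libraries, as 1 gene was called without RAS 4, 2 without Sham 2, 3 without Sham 1, 181 without RAS 1, 100 without both RAS 1 and Sham 3, and 0 without Sham 3 of both populations. A fit that took the replicate number as a block called 1 gene, which is not among the 34, though the labels do not say what that number marks.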

How the data were processed

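RNA from sorted kidney macrophages was amplified with SMART-Seq v4, and libraries were made with Nextera XT. The authors aligned paired-end reads to mm10 with the OSA aligner, annotated genes with Ensembl.R83 and deposited estimated counts per gene, unscaled and shared between transcripts where a read fits several. The deposited second table holds log2 values after TPM scaling and quantile normalization by the authors and served as an alternative only. The submitters' processing notes name DESeq2 and mm10. The deposited columns of each library were matched by name, and 0 columns stayed unmatched.

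Rounding gave whole counts. Summing the 3730 lines with a shared symbol left 34236 names from 37620 lines. Between 9.85% and 11% of values were fractions. edgeR 4.0.16 in R 4.3.3 was used with TMM factors, filterByExpr (minimum count 10, minimum total 15) and the two-sided quasi-likelihood F test on the 7 libraries. Benjamini-Hochberg adjustment ran over all genes tested, and a call is an adjusted p under 0.05. A fold above 2 with an unadjusted p under 0.05 is given as a description, after the study's thresholds, for which it does not say whether p was adjusted. Differences between populations were tested as an interaction in a fit of 4 groups. CPM use TMM factors and are rounded to 3 significant digits, and sums over lists likewise. Alternatives were DESeq2 1.42.0, limma 3.58.1, other scalings and filters, a block for the replicate number, lines kept apart, each library left out, and 1 fit to the 6 groups of the series. Leaving RAS 3 out of the lists, leaving the highest RAS library out of ratios against 0 to 3 Sham counts, and the identity sum without *Lyz2* were added after seeing the data. The procedure was tested on simulated data. Library pairs all differed by more than counting error.

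The comparison, the 38 gene lists (679 of 681 genes found, 13 under older symbols) and the rule for named genes were chosen with earlier results of these data known. Named genes were, since fewer than 5 passed, up to 10 a direction with the smallest unadjusted p, a fold above 2 and log2 CPM of at least 2, those called without RAS 1 and Sham 3, the sort markers, the genes the study names and up to 4 of each other list. Those without printed values are in the counts, and the values of some are not reported here. Ratios for groups of 1 to 3 counts have exact binomial intervals of 95%. Positions are those of GENCODE M21. Promoters came from RefSeq on GRCm38.p6, with windows for 27025 genes.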

Additional observations from a re-analysis of the deposited data

Results flagged for a closer look

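In 11 of the 135 groups of 4 RAS libraries examined, 1 library stood apart by Dixon's test at its 95% limit, where chance alone gives about 1 in 20. RAS 3 was the high library in *Fcgr1* (gap over range 0.949), *C1qc* (0.921), *Ccl8* (0.893), *Tgfb3* (0.892), *C3ar1* (0.867), *Hpgds* (0.842), *Emr1* (0.834) and *Cxcl16* (0.833). The same held for the summed levels of lipid and sterol metabolism (0.875, with 20200 CPM in RAS 3 and 6960 to 8620 CPM in the other RAS libraries) and of kidney-resident macrophage markers (0.872). RAS 1 was the low library in *Col18a1* (0.926, 0.205 CPM against 31.1 to 33.6 CPM). These groups share libraries and genes, so the counts are not independent.

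The response of CD11clo macrophages differed from that of KRM in 34 genes by edgeR's interaction test. None of the 34 was called in the fit with the replicate block, and 0 genes were called without Sham 3 of both populations. The differences on the log2 scale were -7.92 for *Sntb1*, -7.54 for *Fam174b*, -6.58 for *Emid1*, -6.56 for *Cd24a* and 1.49 for *Tmbim1*. *Sntb1* was at 0 in all KRM Sham libraries and *Emid1* in 3 of 4, so their fitted differences depend on the prior count and are no bounds.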

How the results depend on the processing

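With all 7 libraries edgeR called 0 genes under every scaling, filter and left-out library, limma called 0 and DESeq2 107, and without RAS 1 and Sham 3 the count was 36. Genes with a fold above 2 and an unadjusted p under 0.05 numbered 538, and 1070 without the filter on low counts, 353 with at least 10 counts in every library, 300 with limma, 1031 in the fit over all 6 groups and 1426 without RAS 1 and Sham 3, and 280 to 790 with 1 library left out. Without Sham 1 or Sham 2 the share of higher genes among them was 54.6% and 51%, against 77.1%. For the response against CD11chi, DESeq2 called 15. For the response against KRM, the count of 34 became 59 with other size factors, 74 without the filter, 1419 with DESeq2, 1 to 181 with 1 library left out, 100 without RAS 1 and Sham 3 and 0 without Sham 3 of both populations. The fit with the replicate block called 0 genes for RAS against Sham (377 by the fold rule), 0 against CD11chi and 1 against KRM, which is not among the 34. The labels do not say what a replicate number marks. Deviations of same-numbered RAS and Sham libraries correlated at 0.361, 0.0903 and 0.385, and RAS 1 correlated best with Sham 2 (0.421). Between populations, same-numbered libraries correlated at 0.36, 0.401 and 0.665 in Sham and 0.0694 to 0.265 in RAS for CD11chi, and at 0.212, 0.253 and 0.566 in Sham and 0.526, 0.0846 and 0.214 in RAS for KRM. Not every pair was above 0.1, so a shared source of same-numbered libraries was not assumed, and it was not excluded either.

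Without RAS 1 and Sham 3 the medians were 0.98 for alternative activation, 1.53 for complement, 0.37 for apoptotic cell uptake, 3.05 for T and NK cell, 1.06 for dendritic cell, 4.61 for endothelium, 3.69 for fibroblast and pericyte, 0.81 for proximal tubule and 1.24 for the genes the study names. With RAS 1, RAS 3 or Sham 3 left out, the medians ranged from -0.11 to 0.75 for alternative activation, 0.24 to 1.25 for complement, -0.01 to 0.29 for apoptotic cell uptake, 2.16 to 3.89 for T and NK cell, 1.39 to 1.75 (1.80 without both) for B and plasma cell, 0.33 to 0.85 for dendritic cell, 2.38 to 4.17 for endothelium, 1.91 to 3.29 for fibroblast and pericyte, -2.89 to 0.47 for proximal tubule and 0.18 to 0.97 for the genes the study names. Of 113 genes 102 kept their direction under all alternatives, and 50 moved by over 1.5 times with some library left out, most often Sham 3 (19 genes) and RAS 3 (18 of 106 that could be tested without it). *Cyp4b1* turned to 0.03 without Sham 3 and 0.35 without it and RAS 1, and *Slc27a2* to 0.24 and 0.49, from lowest values of -5.44 and -5.39 without Sham 1. *Igfbp7* turned to -0.39 without Sham 1, -0.41 without Sham 2 and -0.05 without RAS 2 or RAS 3, and reached 4.15 without RAS 1 and Sham 3. Of genes near 0, with 1 library left out *Ccr2* ranged from -0.19 to 0.45, *Ccl2* from -0.25 to 0.42, *Il10* from -0.43 to 2.32, *Spn* from -0.27 to 0.03, *Tnf* from -0.71 to 0.36, *Itgam* from -0.07 to 0.18, *Mx1* from -0.14 to 0.18 and *Mertk* from -0.17 to 1.00. Without RAS 1 and Sham 3 the values were -0.28 for *Ccr2*, 0.44 for *Ccl2*, 2.66 for *Il10*, 0.25 for *Tnf*, -0.04 for *Itgam* and 1.24 for *Mertk*. With total library size alone *Itgam* and *Mx1* were both at -0.03, and with the replicate block *Itgam* was at -0.05. The cause of these changes was not tested beyond the values given for RAS 1, RAS 3 and Sham 3. Depth limits genes near 0 counts in Sham.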

Other observations

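The medians of further lists are given with all 7 libraries and as the lowest and highest value when RAS 1, RAS 3, Sham 3, or RAS 1 and Sham 3 were left out, with no test. The macrophage identity list had a median of 0.59 (0.22 to 0.83), the dendritic cell list 16 of 19 and 0.58 (0.33 to 1.06), the angiogenesis list 18 of 22 and 0.84 (0.45 to 2.06), the apoptotic cell uptake list 12 of 19 and 0.13 (-0.01 to 0.37) and the glucocorticoid response list 5 of 15 and -0.29 (-0.29 to -0.16). For tubular epithelium and injury 7 of 13 were higher, with a median of 0.12 that ranged from -0.06 to 3.16 and was 2.76 without Sham 3. For erythroid and blood 6 of 7 were higher, with a median of 1.39 (-0.04 to 1.74), and 3 of 7 without RAS 3. Podocyte genes had 5 of 5 higher and 0.68 (0.30 to 1.11), mast cell, basophil and eosinophil genes 3 of 9 and -0.37 (-0.58 to -0.01), and the renin-angiotensin system 3 of 5 and 0.55 (0.13 to 0.93). Collecting duct had 2 of 3 higher and 0.60, with 1.02 to 4.26 where it could be tested and 0 genes tested without RAS 3, and mesothelium 1 of 1 and 0.82 (0.99 to 2.68). Of lists described above, the same range was -0.24 to -0.08 for hypoxia and glycolysis, 0.16 to 0.54 for cell cycle, 0.12 to 0.56 for unfolded protein and heat shock, 0.04 to 0.54 for Nrf2, heme and iron, 0.15 to 0.37 for lipid and sterol metabolism, 0.24 to 0.67 for the genes used in the sort, -1.04 to -0.32 for classical monocyte, 0.68 to 2.33 for kidney resident macrophage, -0.12 to 0.24 for immediate early and dissociation stress, -0.36 to 0.69 for mitochondrially encoded genes and -2.10 to 4.16 for loop of Henle and distal tubule. Among the angiogenic genes *Nrp1*, a coreceptor for VEGF and semaphorins, was at 148.8, 168.3, 339.5 and 195 CPM in RAS and 108.1, 114.4 and 159.8 CPM in Sham, and *Areg*, an EGF receptor ligand, at 1.74, 13.6, 13.3 and 19.6 CPM in RAS and 4.26, 2.04 and 4.07 CPM in Sham. RAS 1 lay within the Sham range of *Nrp1* and below that of *Areg*.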
